A study of Mus musculus with 4 samples.

Results

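The platelet-derived growth factor (PDGF) and Kit systems were followed as 9 genes: the receptor genes Pdgfra, Pdgfrb and Kit, the receptor-like gene Pdgfrl, the PDGF chain genes Pdgfa, Pdgfb, Pdgfc and Pdgfd, and Kitl, which encodes the Kit ligand stem cell factor. Every non-control probe carrying one of these names on the array was taken, which gave 16 probes for 9 of the 50090 names on the array, out of 61307 probes in all. RNA came from C3H10T1/2, an established mouse embryo fibroblast line whose monolayer stops growing at confluence. In the 3MC+TPA group the cells received 2.5 µg/ml 3-methylcholanthrene (3MC), a polycyclic aromatic hydrocarbon, over 2 days, spent 4 days in plain medium, received 100 ng/ml of the phorbol ester TPA (12-O-tetradecanoylphorbol-13-acetate), an activator of protein kinase C, across 2 weeks, and then had 4 weeks without either agent. In the control group the same line was kept 6 weeks in culture, and no vehicle is named for it. The sample titles give 6 weeks in culture for the 3MC+TPA group too, without saying from which step those weeks are counted. Each group had 2 arrays. RNA stood for whole flasks, since the labels mention foci only as something counted in parallel flasks, and in such bulk RNA fewer cells of a kind and less RNA per cell cannot be told apart.

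PDGF chains are secreted as disulfide-linked dimers that bind and pair the tyrosine kinases encoded by Pdgfra and Pdgfrb on mesenchymal cells, where they drive migration and division. PDGF-A and PDGF-C act mainly through the alpha receptor, PDGF-D mainly through the beta receptor, and PDGF-B through both. Kit belongs to the same class of receptor kinases and serves mast cells, melanocytes, germ cells and blood progenitors, while fibroblasts are a usual source of its ligand.

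All values are log2 signals as deposited, scaled so that 0 marks a probe at the 75th percentile of its own array. Between 32222 and 32512 spots on the 3MC+TPA arrays and between 32125 and 32415 spots on the control arrays were called well above background by the scanner, and no spot was saturated. The lowest signal so called lay at -4.81 and -4.79 on the 3MC+TPA arrays and at -4.70 and -4.77 on the control arrays. Fibroblast markers were well above background on all 4 arrays for 11 of 11 genes, among them Col1a2 (collagen), Vim (vimentin) and S100a4, whose probe was the brightest of that list at 9.19 and 9.22 on the 3MC+TPA arrays, against 9.70 and 9.71 on the control arrays. The defining markers of other cells were not above background on any array: Pecam1 and Cdh5 of endothelium, Ptprc, Itgam and Emr1 of leukocytes, Cdh1 and Cldn4 of epithelium, and Cpa3, Fcer1a and the tryptases Tpsab1 and Tpsb2 of mast cells. Of 7 endothelial markers 2 were tested: Tek, an angiopoietin receptor, was at least 1.76-fold higher, and Vwf, the brighter, changed by -0.79 (adjusted p = 0.260, limma). For Tek the deposited log2 change was 1.79 (adjusted p = 0.00989, limma), which uses control readings that were not above background. Over 15 alternatives its change lay between 0.45 and 2.15. Of 8 leukocyte markers 4 were tested and of 7 epithelial markers 3, and none of these passed, their brightest being Cd14 with a change of 0.044 (adjusted p = 0.913) and Krt8 with -0.29 (adjusted p = 0.477, limma). Nothing in the labels names separate cultures behind the 2 arrays of each group, and the p-values below measure the spread between arrays, which may be technical. All 4 arrays lay on 1 slide in 1 scan, with position and group running together, so the 2 cannot be told apart.

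Pdgfra and Pdgfrb, the signalling receptors for PDGF, were lower in 3MC+TPA cells, by 2.79-fold and 2.04-fold. No PDGF chain gene and neither Kitl nor Pdgfrl passed the threshold in either direction, and Kit was not above background in any array. Of the 16 probes, 13 from 8 genes were well above background on both arrays of at least 1 group and could be tested. Of these 13, 3 passed an adjusted p of 0.05 in limma with Benjamini-Hochberg adjustment over all probes tested, all 3 lower in 3MC+TPA cells. Across the array 15.1% of tested probes passed (4844 of 32107), 7.14% higher and 7.95% lower. The 3 calls come from 2 genes, as 2 of the 3 probes read Pdgfra. Whether 3 of 13 differs from that background was not tested. The groups did not overlap for 9 of the 13 probes, a pattern found in 64.0% of all tested probes.

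**Figure D1:**
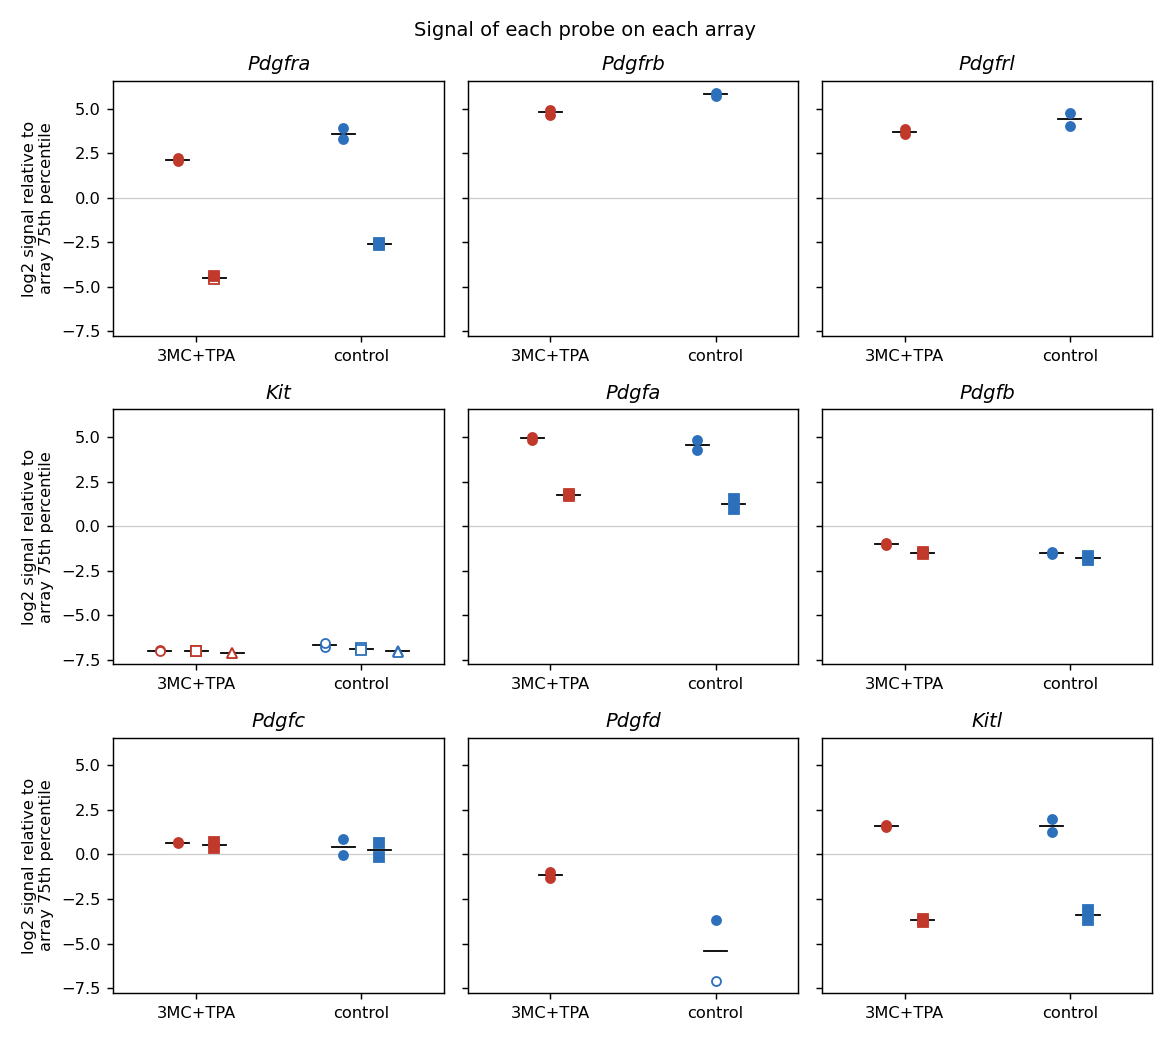
Deposited log2 signal, with 0 at the 75th percentile of each array (vertical axis), for every probe of the 9 genes on each array, with 3MC+TPA arrays left (red) and control arrays right (blue). Circles, squares and triangles are different probes of a gene, open symbols were not well above background, and black lines are means of 2 arrays. Pdgfra and Pdgfrb lie lower on the 3MC+TPA arrays, Kit is open throughout, and the control arrays of Pdgfd lie far apart.

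Pdgfra encodes PDGF receptor alpha, the receptor that every PDGF chain except PDGF-D engages well. Its brighter probe read 2.20 and 2.03 on the 3MC+TPA arrays, against 3.90 and 3.29 on the control arrays. Both exposed values lay below both control values, and the control arrays were 0.61 apart, against 0.16 for the exposed arrays. The mean was 2.11 ± 0.12 in 3MC+TPA cells and 3.59 ± 0.43 in control cells (SD, n = 2 each), a log2 change of -1.48 ± 0.25 (SE, adjusted p = 0.0218, limma), with a 95% interval of -2.11 to -0.85. The second probe reads another stretch of the transcript and was much dimmer, at -4.60 and -4.42 on the 3MC+TPA arrays, against -2.67 and -2.55 on the control arrays. It changed by -1.90 ± 0.16 (adjusted p = 0.00385, limma), a 3.72-fold fall, and only 1 of the 2 exposed arrays was well above background for it, so its fold leans on a signal at the detection limit. The 2 probes that carry the result are shown because they differ in sequence and gave the same direction. The first is given by its 30 bases at the 5′ end and the second in full, in lower case as no part is marked.
Pdgfra, brighter probe: tgtatatatctgttgctatgtagacttgga
Pdgfra, second probe: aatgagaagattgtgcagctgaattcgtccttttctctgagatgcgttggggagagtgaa

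Pdgfrb encodes PDGF receptor beta, the receptor of PDGF-B and PDGF-D, and was read by 1 probe. Its probe read 4.91 and 4.65 on the 3MC+TPA arrays, against 5.89 and 5.73 on the control arrays. The groups were separate and the arrays within each group lay close together. The mean was 4.78 ± 0.18 in 3MC+TPA cells and 5.81 ± 0.12 in control cells (SD, n = 2 each), a log2 change of -1.03 ± 0.18 (SE, adjusted p = 0.0231, limma) with a 95% interval of -1.48 to -0.58. The calls of both receptors depended on single arrays, although neither changed direction. Without 3MC+TPA array 1 the adjusted p was 0.0908 for Pdgfra and 0.0698 for Pdgfrb, and without 3MC+TPA array 2 it was 0.114 and 0.110. Without control array 1 that of Pdgfrb was 0.0609 and that of Pdgfra 0.0308. In each of these fits a lone array was assumed to vary like those of the other group.

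Pdgfrl encodes a secreted protein that resembles the ligand-binding part of the PDGF receptors and has no kinase. Its probe read 3.82 and 3.58 on the 3MC+TPA arrays, against 4.77 and 4.04 on the control arrays. The groups did not overlap, but the control arrays differed by 0.73, about as much as the group means. The log2 change of -0.71 ± 0.29 did not pass (adjusted p = 0.161, limma), and its 95% interval of -1.44 to 0.025 includes a fall of the size seen for Pdgfrb. Its size depended on the control arrays, at -0.34 without control array 1 (adjusted p = 0.395) and -1.07 without control array 2 (adjusted p = 0.0529, limma).

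Kit, the stem cell factor receptor, had 3 probes, of which 2 share their whole 60-base sequence and so are repeats of 1 measurement. The probe with the sequence of its own read -6.98 and -7.04 on the 3MC+TPA arrays, against -6.82 and -6.59 on the control arrays. The shared sequence read between -7.12 and -7.01 on the 3MC+TPA arrays, against -7.08 to -6.85 on the control arrays. None of the 3 probes was well above background on any array, so these readings are substitutes for dim spots or close to them and give no level and no fold. In both groups the signal of Kit was below the limit of detection, about -4.8. The first 30 bases of both sequences are shown so that the readings can be tied to their targets.
Kit, own sequence: tgtggtcatgtacgagactgtcaccagtta
Kit, shared sequence: cacgttacatgtgggttttttctgatatgt

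Among cells that use Kit, mast cells had 2 of 9 markers tested, Hdc and Gata2, and neither passed. Gata2, a transcription factor also found outside mast cells and the brightest of that list, read 2.16 and 2.45 on the 3MC+TPA arrays, against 2.02 and 2.03 on the control arrays. Melanocyte markers had 3 of 7 genes tested and 1 higher: Mlana, a melanosome protein, read -0.11 and -0.046 on the 3MC+TPA arrays, against -2.72 and -2.93 on the control arrays, a change of 2.75 ± 0.16 (adjusted p = 0.00145, limma). Mitf, the transcription factor of that lineage and the brightest of that list, changed by 0.042 (adjusted p = 0.879, limma). Sox10, dim but above background on all 4 arrays, changed by -0.37 (adjusted p = 0.243, limma). Tyr, Tyrp1 and Dct, the pigment enzymes, were not above background on any array, and Si was so only on 3MC+TPA array 2 and control array 2.

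Pdgfd encodes PDGF-D, which is secreted in a latent form and freed by proteolysis. Its single probe read -1.01 and -1.31 on the 3MC+TPA arrays, against -3.69 and -7.09 on the control arrays. Both exposed values lay above both control values, and the control arrays differed by 3.40, with control array 2 not well above background and carrying a substitute value. The mean was -1.16 ± 0.21 in 3MC+TPA cells and -5.39 ± 2.40 in control cells (SD, n = 2 each), and the log2 change of 4.24 ± 1.08 did not pass (adjusted p = 0.0628, limma). The size of this change has no fixed meaning, since the control mean includes the substitute value. With dim values raised to the lowest signal well above background of their array, an alternative chosen after seeing the data, the change was 3.08 with an adjusted p of 0.00688. Without control array 2, which leaves the control array that measured the probe, it was 2.54 (adjusted p = 0.00540). Over 15 alternatives the change stayed positive and passed in 6, one of which, without control array 1, set the exposed arrays against the substitute value alone and gives no usable size. The probe is given in full because the largest difference among the 9 genes rests on it alone.
Pdgfd: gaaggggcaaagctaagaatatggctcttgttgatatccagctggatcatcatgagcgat

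Pdgfb encodes the chain that binds both receptors, the cellular counterpart of the sis oncogene. Its brighter probe read -1.08 and -0.98 on the 3MC+TPA arrays, against -1.47 and -1.59 on the control arrays. The groups were separate by a narrow margin, and the log2 change of 0.50 ± 0.16 did not pass (adjusted p = 0.0965, limma). The second probe read -1.48 and -1.57 on the 3MC+TPA arrays, against -1.66 and -1.93 on the control arrays, with a change of 0.27 ± 0.17 (adjusted p = 0.335, limma). A separate predicted locus, LOC100044675, described in the files as similar to the PDGF-B chain, changed by 0.30 ± 0.21 (adjusted p = 0.385, limma).

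Pdgfa encodes the chain most fibroblasts make for their own alpha receptor. Its brighter probe read 4.86 and 4.99 on the 3MC+TPA arrays, against 4.81 and 4.27 on the control arrays. The lowest exposed value exceeded the highest control value by only 0.046, and the change of 0.38 ± 0.23 did not pass (adjusted p = 0.305, limma). The second probe read 1.68 and 1.81 on the 3MC+TPA arrays, against 1.51 and 0.97 on the control arrays, with a change of 0.50 ± 0.23 (adjusted p = 0.200, limma). On both probes control array 2 was the low one, and without it the changes were 0.11 and 0.23.

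Pdgfc encodes PDGF-C, which like PDGF-D is secreted latent. Its brighter probe read 0.68 and 0.62 on the 3MC+TPA arrays, against -0.031 and 0.87 on the control arrays. The exposed values lay between the control values, and the change was 0.23 ± 0.32 (adjusted p = 0.658, limma). The second probe gave the same picture, with 0.68 and 0.38 on the 3MC+TPA arrays, against -0.16 and 0.66 on the control arrays, and a change of 0.28 ± 0.31 (adjusted p = 0.578, limma). The direction of both probes turned without control array 1, to -0.22 and -0.13.

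Kitl encodes stem cell factor, made as a membrane protein that proteases can release. Its brighter probe read 1.63 and 1.57 on the 3MC+TPA arrays, against 1.25 and 1.98 on the control arrays. The groups overlapped, and the change was -0.015 ± 0.27 (adjusted p = 0.976, limma), with a 95% interval of -0.71 to 0.68. The second probe was dim, at -3.77 and -3.64 on the 3MC+TPA arrays, against -3.67 and -3.12 on the control arrays, and changed by -0.31 ± 0.23 (adjusted p = 0.409, limma). The sign of the brighter probe was not stable, with 0.35 without control array 2 and 0.052 when arrays were scaled to their medians.

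The 5 genes with a pair of tested probes allow a check of each reading against another sequence. In all 5 the 2 probes changed in the same direction. Beside them stand 4611 genes with 2 probes of different sequence well above background on all 4 arrays, of which 82% did so. That set is stricter than the tested probes, and Pdgfra falls outside it, since its second probe was not above background on 3MC+TPA array 1. In 4 of the 5 the 2 control arrays also differed in the same direction on both probes, against 66.1% of the 4611 genes. Pdgfc and Kitl were higher on control array 2 by 0.55 to 0.90 on each of their probes, while Pdgfa was lower there by 0.54 on each probe. For these genes the gap between the control arrays exceeded the difference between the group means.

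**Figure D2:**
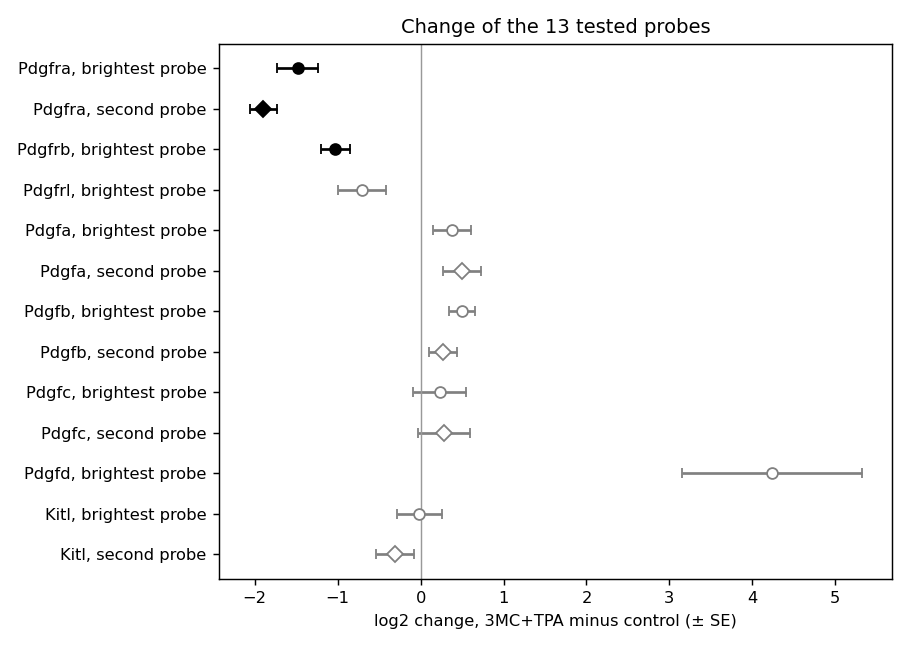
Log2 change of each tested probe (horizontal axis, 3MC+TPA minus control, bars are ± 1 SE of the fit), 4 arrays in all. Circles are the brightest probe of a gene and diamonds the second, and filled symbols passed an adjusted p of 0.05. The filled symbols are the 2 probes of Pdgfra and the probe of Pdgfrb, all left of 0, and Pdgfd has the widest bar.

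Another normalisation or filter left the direction of Pdgfra and Pdgfrb in place. Over 16 alternatives the brighter probe of Pdgfra changed by between -1.79 and -1.12 and passed in 12, and Pdgfrb changed by between -1.16 and -0.67 and passed in 11. Pdgfrl stayed lower in all 16 without passing in any. Pdgfb and Pdgfa stayed higher in all 16, and for Pdgfb the threshold was passed only when arrays were not scaled to each other, a setting that moved the median of all tested probes up by 0.36.

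**Figure D3:**
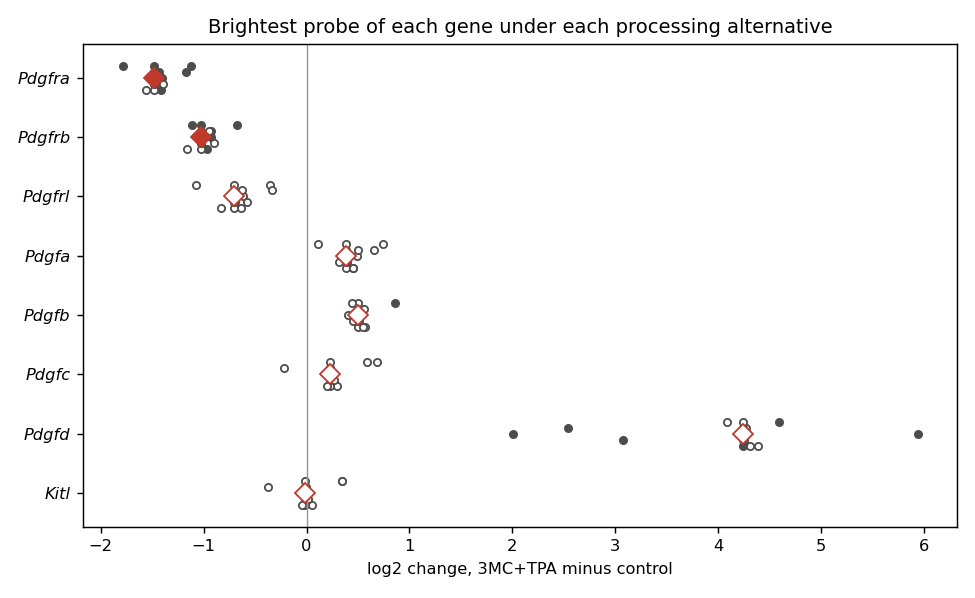
Log2 change (horizontal axis, 3MC+TPA minus control) of the brightest probe of each gene as reported (red diamonds) and under each processing alternative (grey circles), with filled symbols for an adjusted p under 0.05. Pdgfra and Pdgfrb stay left of 0, Pdgfd stays right of 0, its point at 5.94 being the fit that kept only the control array not above background, and Pdgfc and Kitl fall on both sides.

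Pdgfrb was left out of the promoter search beforehand, and its promoter is not reported here. Promoter sequences of RefSeq (assembly GRCm38.p6, 250 bases before to 50 after an annotated start) were read for 6 of the 9 genes, with 8 entries. They were searched on both strands for the AP-1 site TGACTCA, the element bound by the phorbol ester-responsive factor AP-1, which 5.2% of the 32851 promoters hold, for the xenobiotic response element TNGCGTG of the aryl hydrocarbon receptor, held by 5.07%, for the GC box GGGCGG, held by 35.7%, and for TATAAA, held by 13.6%. None of the 8 entries held the AP-1 or the xenobiotic letters. The GC box was found once in each Kit entry, once and 2 times in the Pdgfa entries and 3 times, with overlaps, in Kitl, which also held TATAAA. The Kit entries overlap and hold the same GC box, at -98 and -102 from their own starts. Entries with a GC box were 67% to 73.3% G and C, against a median of 52.7% over all promoters. The promoters of the genes with the lowest and the highest change are shown, with the motif that was found in capitals. Pdgfra held none of the 4 motifs in this window, and Pdgfd held TATAAA at position -160 relative to the start. A match is a run of letters and not a measured site.
Pdgfra, chr5:75152001-75152300, plus strand: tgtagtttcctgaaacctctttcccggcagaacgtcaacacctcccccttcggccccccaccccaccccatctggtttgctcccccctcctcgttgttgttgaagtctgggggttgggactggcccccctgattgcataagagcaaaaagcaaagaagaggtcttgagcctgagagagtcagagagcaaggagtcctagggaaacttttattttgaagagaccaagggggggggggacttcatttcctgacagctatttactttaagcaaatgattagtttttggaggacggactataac
Pdgfd, chr9:6168236-6168535, plus strand: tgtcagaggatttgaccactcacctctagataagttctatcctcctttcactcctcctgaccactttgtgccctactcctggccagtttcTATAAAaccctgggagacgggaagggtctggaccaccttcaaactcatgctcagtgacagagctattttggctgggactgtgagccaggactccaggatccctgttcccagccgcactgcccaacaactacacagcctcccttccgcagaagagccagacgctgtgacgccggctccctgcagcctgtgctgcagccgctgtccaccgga

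The genes that release or store the ligands were read from a list of 11, of which 9 were tested by their brightest probe, 3 were lower, 0 were higher and 6 did not pass. The background for brightest probes was 15.1% passing (3780 of 24980), 6.95% higher and 8.18% lower. The median change of the list was -0.26, against -0.015 over all genes tested. Pcsk6, a proprotein convertase of the secretory pathway, read -1.29 and -1.57 on the 3MC+TPA arrays, against 2.66 and 3.87 on the control arrays, a 25.9-fold fall (adjusted p = 0.00418, limma). Mmp9, a gelatinase known in mouse marrow to release soluble Kit ligand, was not above background on either 3MC+TPA array. It read -0.47 and -1.82 on the control arrays, which makes it at least 12.6-fold lower. The deposited log2 change of Mmp9, which uses the dim readings, was -3.75 (adjusted p = 0.00942, limma). Plau, the urokinase that frees active PDGF-D, read -4.49 and -3.82 on the 3MC+TPA arrays, against -2.51 and -1.81 on the control arrays, a 3.98-fold fall (adjusted p = 0.0229, limma). Its exposed readings lay near the detection limit, and over 16 alternatives the log2 change of Plau lay between -2.35 and -0.99. Plat, the tissue plasminogen activator that frees PDGF-C, changed by 0.13 (adjusted p = 0.687, limma). Of the 3 that fell, Pcsk6 passed with any single array left out, while Mmp9 and Plau passed in 2 of the 4 such fits each.

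Of 6 co-receptors and binding partners all 6 were tested, and 1 was lower, 0 higher, with a list median of 0.23. Nrp2, a neuropilin co-receptor for several growth factors, read 1.82 and 1.76 on the 3MC+TPA arrays, against 3.36 and 3.25 on the control arrays, a 2.85-fold fall (adjusted p = 0.00596, limma) that was called on 2 of its 3 tested probes and held with any single array left out. Nrp1, its relative and a partner of the PDGF receptors, changed by -0.51 (adjusted p = 0.321, limma) on its brightest probe, while the other of its 2 tested probes was called lower.

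Receptor-proximal signalling held 26 tested genes of 28, with 4 higher, 2 lower and 20 that did not pass, and a median of 0.16. Fyn, a Src family kinase recruited by activated PDGF receptors, read 3.04 and 3.06 on the 3MC+TPA arrays, against 1.16 and 0.26 on the control arrays, a 5.06-fold rise (adjusted p = 0.0128, limma) called on 4 of 4 probes. Pik3cb, a catalytic subunit of phosphoinositide 3-kinase, read -0.24 and -0.15 on the 3MC+TPA arrays, against -2.20 and -2.77 on the control arrays, a 4.88-fold rise (adjusted p = 0.00618, limma). Jak2, a cytoplasmic tyrosine kinase, read 1.39 and 1.02 on the 3MC+TPA arrays, against 2.41 and 3.16 on the control arrays, a 2.98-fold fall (adjusted p = 0.0306, limma) called on 1 of 2 probes. The other calls were the adaptors Gab1 and Slc9a3r1, higher, and the transcription factor Stat5a, lower. Pik3r1 did not pass on its brightest probe, with a change of -0.47 (adjusted p = 0.110, limma), although 2 of its 4 tested probes were called lower. With single arrays left out, Fyn, Jak2 and Slc9a3r1 passed in 2 of the 4 fits, Pik3cb in 3, Gab1 in 1 and Stat5a in none.

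Negative regulators of the receptors had 13 tested genes of 17, with 3 higher, 1 lower and 9 that did not pass, and a median of -0.014. Ptpn6, the SHP-1 phosphatase best known from blood cells, where it restrains Kit, read -2.26 and -1.84 on the 3MC+TPA arrays, against -4.37 and -4.40 on the control arrays, a 5.04-fold rise (adjusted p = 0.00369, limma) called on 1 of 2 probes and held with any single array left out. The control readings of Ptpn6 lay near the detection limit, and over 16 alternatives its log2 change lay between 1.09 and 2.69. Ptprj, a receptor phosphatase that dephosphorylates PDGF receptor beta, rose 2.56-fold (adjusted p = 0.0190, limma) on its brighter probe and was called on 1 of 2, at 2.50 and 2.02 on the 3MC+TPA arrays, against 0.95 and 0.86 on the control arrays. Sh3kbp1, an adaptor in receptor uptake by the Cbl ligases, fell 2.20-fold (adjusted p = 0.0129, limma) on 3 of 3 probes. Ptprj and Sh3kbp1 each passed in 2 of the 4 fits with an array left out. The other call was Cbl, a ubiquitin ligase of activated receptors, which was higher and passed in none of those fits.

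Genes that PDGF is known to induce in fibroblasts had 23 tested of 24, with 1 higher, 2 lower and 20 that did not pass, and a median of -0.13. Has2, a hyaluronan synthase, read -2.68 and -3.64 on the 3MC+TPA arrays, against 1.14 and 2.41 on the control arrays, a 30.5-fold fall (adjusted p = 0.00681, limma) that held with any single array left out. Ccl2, a chemokine first described as a PDGF-induced gene, read 7.23 and 7.68 on the 3MC+TPA arrays, against 8.79 and 9.01 on the control arrays, a 2.73-fold fall (adjusted p = 0.0166, limma) that passed in 3 of the 4 fits. Junb, an AP-1 subunit, was 1.65-fold higher (adjusted p = 0.0379, limma) on 1 of 2 probes and passed in none of the 4. The early-response genes Fos and Egr1 changed by 0.23 (adjusted p = 0.665) and 0.36 (adjusted p = 0.210, limma), and Myc by -0.99 (adjusted p = 0.0841, limma).

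**Figure D4:**
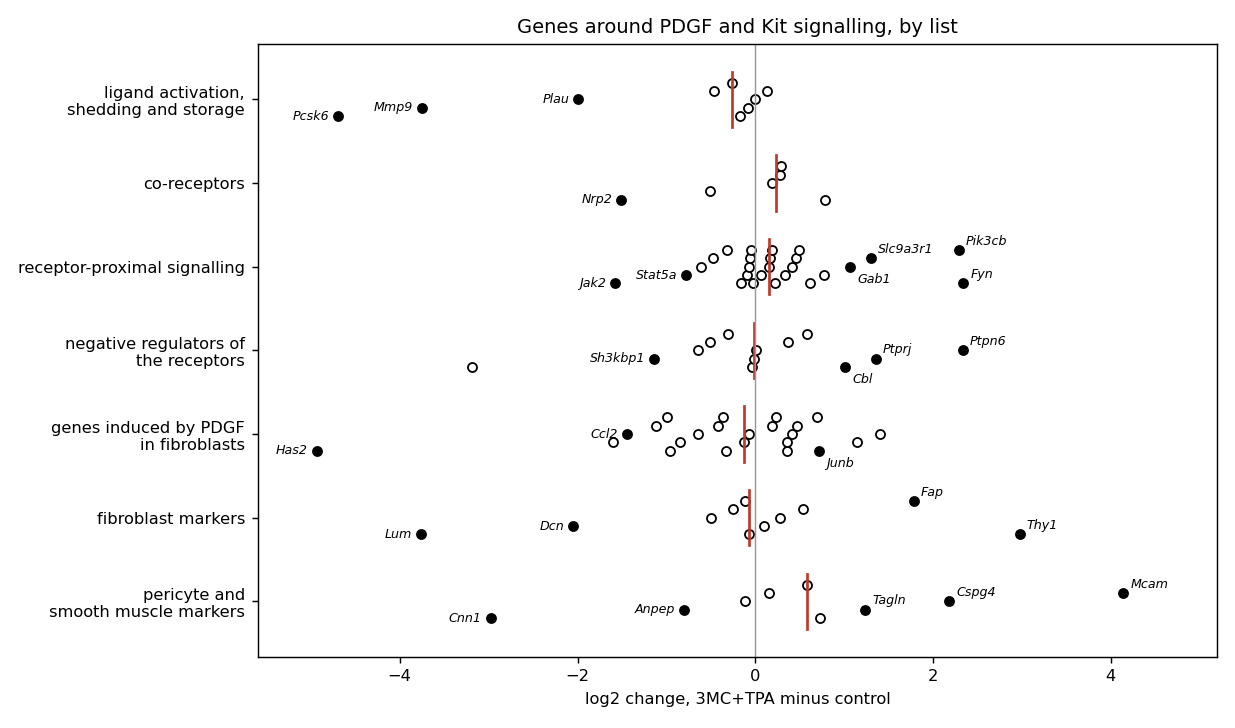
Log2 change (horizontal axis, 3MC+TPA minus control) of the brightest probe of each tested gene, by list. Filled symbols passed an adjusted p of 0.05 and carry their name, red lines are list medians, and vertical position within a list only separates points. The 3 filled genes among those that activate or store ligands lie left of 0, and pericyte and smooth muscle markers lie on both sides.

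Pdgfra and Pdgfrb also mark kinds of mesenchymal cell, so the markers of those kinds are given beside them. Of 11 fibroblast markers 2 were higher, 2 lower and 7 did not pass, with a median of -0.065 and a log2 of the summed signal of 10.67 and 10.73 on the 3MC+TPA arrays, against 11.04 and 10.87 on the control arrays. Lum and Dcn, small proteoglycans of the collagen matrix, fell 13.5-fold (adjusted p = 0.00272) and 4.14-fold (adjusted p = 0.00802, limma). Thy1, a surface protein of many fibroblasts, and Fap, a surface protease of activated ones, rose by 2.97 (adjusted p = 0.0492) and 1.78 (adjusted p = 0.0216, limma) on the log2 scale. Lum passed with any single array left out, and Dcn, Thy1 and Fap in 2 of the 4 fits each.

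Of 12 pericyte and smooth muscle markers 9 were tested, and 3 were higher, 2 lower and 4 did not pass, with a median of 0.58. Mcam, an adhesion molecule of vessel walls, read 1.51 and 1.69 on the 3MC+TPA arrays, against -1.61 and -3.47 on the control arrays, a 17.6-fold rise (adjusted p = 0.0155, limma). Cspg4, the NG2 proteoglycan, which can bind PDGF-A, rose 4.55-fold (adjusted p = 0.0162, limma). Cnn1, a calponin of smooth muscle, fell 7.86-fold (adjusted p = 0.00759, limma), with 1 of 2 exposed arrays above background. All 3 passed in 2 of the 4 fits with an array left out. The remaining calls were Tagln, 2.36-fold higher (adjusted p = 0.0304, limma) on 2 of 2 probes, and Anpep, 1.74-fold lower (adjusted p = 0.0388, limma). Rgs5, Abcc9 and Kcnj8, which mark pericytes most closely, were above background on at most 1 array and were not tested. Acta2, the brightest of the list, changed by -0.12 (adjusted p = 0.781, limma). The log2 of the summed signal of this list was 8.31 and 8.49 on the 3MC+TPA arrays, against 8.74 and 8.15 on the control arrays, and whether a change in the makeup of the culture has a part in the lower receptor signals was not tested.

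Of 9 genes that lie near Pdgfra and Kit on chromosome 5, 7 were tested, 1 was lower and 0 were higher, with a median of 0.135. The call was Scfd2, a gene of vesicle transport, with a change of -0.79 (adjusted p = 0.0412, limma) on 1 of 2 probes, which passed in none of the fits with an array left out. Lnx1 changed by -0.95 (adjusted p = 0.0974, limma) on its brightest probe, while the other of its 2 tested probes was called lower. Chic2, on the same side of Pdgfra as Gsx2, changed by 0.20 (adjusted p = 0.507, limma), and Kdr and Gsx2 were not above background on any array.

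The genes whose pattern over the 4 arrays was most like that of a member were sought among the other 24979 tested names by the root mean square difference of log2 values, each probe taken relative to its own mean. For Pdgfra, the largest fall among brightest probes of members above background on all 4 arrays, these were LOC100046471, a predicted locus, at a difference of 0.019, and a pair of non-coding clone transcripts at 0.034 and 0.043. For Pdgfb, the highest change among such probes, which did not pass, they were Gpd2, a mitochondrial glycerol-phosphate dehydrogenase, at 0.0055, Nit1, a nitrilase-family enzyme, at 0.0082, and 9130023H24Rik at 0.0088. With 4 arrays and this many candidates such closeness is a description only.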

How the data were processed

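Cy3-labelled RNA was read on 4 arrays of 1 colour. The processed signal, an intensity after background subtraction with substitutes for dim spots, came from Agilent Feature Extraction 10.7.3.1, per the file headers. The deposited table holds log2 values made by the authors, per the submitters' processing notes with GeneSpring GX 11.5. Each column is the processed signal on the log2 scale with its own array's 75th percentile subtracted, within 0.01 for at least 61287 of 61307 probes, with column medians between -4.39 and -4.29 and no centring by gene.

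Probes were matched by name and groups taken from the sample titles. A probe was tested when well above background on both arrays of at least 1 group. A 2-sided limma model without covariates (lmFit, then eBayes; limma 3.58.1, R 4.3.3) compared the groups, Benjamini-Hochberg adjusted over 32107 probes. A gene with several probes is given by its brightest, with the others beside it. Intervals are 95% intervals of that fit. An at-least fold sets the bright group's mean against the detection limit of the dim group's arrays. That 4 arrays were run limits the precision.

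Members and lists were chosen with earlier results of these data known. Named genes are all members, per list up to 3 calls with the largest change, otherwise the gene with the largest change, the brightest marker per list, and the 3 most alike genes for 2 members. Any other gene was chosen with its value in view, to name an untested or uncalled list gene or fill out a count. One gene of the list of negative regulators is not reported here. There were 16 alternatives. Probe positions on the genome were not used here.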

Additional observations from a re-analysis of the deposited data

How the results depend on the processing

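The number of tested probes that passed was 4844 and moved to 8784 with no scaling between arrays (80.1% of them higher, against 47.3%, with the median of all probes up by 0.36), to 1264 with no filter on dim probes and to 17 by the methods' t-test (7281 at an unadjusted p under 0.05), and lay between 1337 and 4476 with a single array left out, lowest without 3MC+TPA array 2 and at 1670 without 3MC+TPA array 1. Of the member probes 3 passed, against 6 with no scaling, 1 with no filter, 0 by the methods' t-test (4 unadjusted, against 5 by limma) and 1 to 4 with an array left out. Pdgfra kept -1.48 and Pdgfrb -1.03 but did not pass with no filter (adjusted p = 0.103 and 0.0826) or by the methods' t-test (adjusted p = 0.209 and 0.175). With an array left out Pdgfra lay between -1.79 and -1.17 and Pdgfrb between -1.16 and -0.90. Pdgfd, 4.24 and not passing, passed at 2.01 with normexp and quantile normalisation, at 4.59 with no scaling, at 3.08 with dim values raised and at 2.54 to 5.94 with a control array left out, the higher value resting on a control spot not above background. With no scaling Pdgfb and the second probe of Pdgfa passed at 0.86 each, and the second probe of Pdgfra did not pass by the methods' t-test (adjusted p = 0.119). Signs turned for Kitl (0.34 with no scaling, 0.052 with median scaling, 0.35 without control array 2 and 0.014 without 3MC+TPA array 2), its second probe (0.051 with no scaling), and Pdgfc (-0.22 and -0.13 on its second probe without control array 1). With an array left out Kitl lay between -0.38 and 0.35, and Pdgfc between -0.22 and 0.68, or -0.13 and 0.69 on its second probe. The causes were not tested. The other 198 recomputed values kept their direction and side of the threshold, or for counts stayed within 1.5 times.

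Replicate numbers carry no shared batch in the labels, and the gaps between array 1 and array 2 correlated at 0.0085 between groups over 32107 probes. With the replicate number as a block 4236 probes passed, 4 of them member probes, and Pdgfd passed at 4.24 (adjusted p = 0.0342).

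Of the 33 called genes of the other lists, 27 passed without control array 1, 23 without control array 2, 9 without 3MC+TPA array 1 and 9 without 3MC+TPA array 2. With 2 arrays a group and 1 slide, precision and position on the slide limit every value, and signals under about -4.8 give only bounds.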

Other observations

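Receptors and ligands related to Kit and the PDGF receptors were also read, as 13 genes of which 10 were tested, 1 was higher, 3 were lower and 6 did not pass, with a median change of -0.61, against -0.015 over all genes and a background of 15.1% passing. Il34, a ligand of the CSF1 receptor, read -0.85 and -0.72 on the 3MC+TPA arrays, against -2.12 and -3.00 on the control arrays, a 3.43-fold rise (adjusted p = 0.0258, limma). Csf1, the other ligand of that receptor, read 5.21 and 5.13 on the 3MC+TPA arrays, against 6.08 and 6.17 on the control arrays, a 1.94-fold fall (adjusted p = 0.0194, limma) called on 2 of 2 probes. The receptor gene Csf1r changed by -1.67 without passing (adjusted p = 0.151, limma), with 1 of 2 exposed arrays above background.

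Figf, which encodes VEGF-D, read 2.41 and 2.80 on the 3MC+TPA arrays, against 4.73 on both control arrays, a 4.35-fold fall (adjusted p = 0.00435, limma) that held with any single array left out. Vegfc, which encodes its relative VEGF-C, read 3.37 and 3.34 on the 3MC+TPA arrays, against 4.50 and 4.25 on the control arrays, a 2.03-fold fall (adjusted p = 0.0212, limma). Both bind the receptor encoded by Flt4, and neither Flt4 nor the related receptor gene Kdr was above background on any array. Csf1 and Vegfc passed in 1 of the 4 fits with an array left out and Il34 in 2.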
